A study of Homo sapiens with 3 samples.

Results

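The genes of MHC class I antigen presentation were followed in 3 RNA sequencing libraries of MIAPaCa-2 cells, a line established from a human pancreatic carcinoma. They were HLA-B, HLA-C, HLA-E, B2M, TAP1, TAP2, TAPBP, PSMB8 and PSMB9. These genes were chosen by name for their place in the pathway, with earlier results of these data known. All 9 were found among the 14949 genes of the deposited table. The first library came from cells with a control short hairpin and no treatment (sh-CTL). The second came from cells with a hairpin against METTL3 and no treatment (sh-METTL3), and the third (sh-CTL + PLK1i, also called the PLK1i library) from sh-CTL cells kept for 24 h with 80 nM of NMS-P937, which inhibits PLK1. The METTL3 protein writes N6-methyladenosine on RNA, and PLK1 is a mitotic kinase. All 3 groups were the same line and all carried a hairpin. The labels named no vehicle for the control and did not say whether the hairpin lines were clones. Each group held 1 library, so no difference below was tested against replicate error, and no p-value was computed.

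MHC class I molecules show fragments of a cell's own proteins on its surface. The immunoproteasome, which carries PSMB8 and PSMB9 in place of standard catalytic subunits, cuts proteins into peptides. The transporter made of TAP1 and TAP2 moves the peptides into the endoplasmic reticulum, where tapasin (TAPBP) helps to load them onto a heavy chain paired with beta-2-microglobulin (B2M). HLA-B and HLA-C are classical heavy chains read by cytotoxic T cells, and HLA-E is a non-classical heavy chain read mainly by natural killer cells. Interferon-gamma, NF-kB and the transactivator NLRC5 are known activators of these genes, and tumour cells often carry them at a low level.

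All members but B2M lie in the MHC region of chromosome 6, and B2M lies on chromosome 15. In GENCODE 44 placed on GRCh37 (hg19), the build that the submitters' processing notes name, HLA-B spans chr6:31321649-31334844, HLA-C spans chr6:31236526-31239907 and HLA-E spans chr6:30457286-30461971. In the same build TAP2 spans chr6:32789610-32806516, PSMB8 chr6:32808494-32812456, TAP1 chr6:32812986-32821593 and PSMB9 chr6:32811913-32827628, while TAPBP spans chr6:33267471-33282061 and B2M chr15:45003556-45011049. HLA-E, B2M and PSMB9 are on the plus strand and the other members on the minus strand. The annotated span of PSMB9 overlaps TAP1 and PSMB8 on the opposite strand. The library kit kept the strand, but the strand setting of the counting was not given in the sources used here.

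The promoters below are shown because they bear the letters through which interferon-induced factors are known to act. Each is a stretch of 100 bases from the RefSeq promoter table (GRCh38.p14, a different build from the gene positions above), written 5′ to 3′ on the gene's strand. Capitals mark the core AANNGAAA or its reverse complement, searched on both strands. PSMB9 is shown without capitals because its window of 300 bases held no such match. The absence holds for that window only: the capitals of the TAP1 stretch lie upstream of PSMB9, outside it.
HLA-B, chr6:31357281-31357380 (- strand): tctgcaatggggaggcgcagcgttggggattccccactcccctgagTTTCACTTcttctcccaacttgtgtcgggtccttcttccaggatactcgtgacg
HLA-C, chr6:31272190-31272289 (- strand): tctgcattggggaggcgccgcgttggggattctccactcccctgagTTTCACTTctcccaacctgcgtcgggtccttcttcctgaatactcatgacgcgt
TAP1, chr6:32853782-32853881 (- strand): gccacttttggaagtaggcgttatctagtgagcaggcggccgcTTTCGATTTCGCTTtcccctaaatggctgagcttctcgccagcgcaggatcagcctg
PSMB8, chr6:32843998-32844097 (- strand): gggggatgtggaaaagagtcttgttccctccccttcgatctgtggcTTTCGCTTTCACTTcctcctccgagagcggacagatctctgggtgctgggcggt
B2M, chr15:44711332-44711431 (+ strand): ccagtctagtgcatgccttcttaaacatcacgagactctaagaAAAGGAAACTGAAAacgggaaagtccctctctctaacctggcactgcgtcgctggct
TAPBP, chr6:33314040-33314139 (- strand): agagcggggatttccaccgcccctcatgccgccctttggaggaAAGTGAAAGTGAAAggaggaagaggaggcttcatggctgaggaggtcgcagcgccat
PSMB9, chr6:32854092-32854191 (+ strand): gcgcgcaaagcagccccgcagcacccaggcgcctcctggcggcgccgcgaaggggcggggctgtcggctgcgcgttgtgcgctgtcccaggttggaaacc

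The table held windows for 8 of the 9 members, from 250 bases before to 50 after the start, and HLA-E was not among them. TAP1 and PSMB8 each had another listed start, which made 10 windows. AANNGAAA was found in 7 of these 10 windows, against 22.8% of all 35116 windows of that length in the table. The other windows of TAP1 and PSMB8 and that of PSMB9 held none. In HLA-B and HLA-C the match began 155 and 151 bases before the start. In TAP1, TAP2, TAPBP, B2M and PSMB8 it came as a pair of matches that shared bases at their ends, and the pair in PSMB8 lay across the start itself. The NF-kB-type core GGANTNNCC was found in 6 of the 10 windows and in 14.2% of all windows, CCAAT in 5 of 10 and in 34.6%, and TGACG in 6 of 10 and in 24.6%. No match of one motif overlapped a match of another in these members. The genes are related and were chosen by function, so these counts are a description of letters and show no binding.

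Reads in listed genes numbered 37449331 in sh-CTL, 46944900 in sh-METTL3 and 47727495 with PLK1i, to within the rounding of the deposited values. Values below are normalized counts, that is, reads per gene scaled so that the libraries can be compared. A change is a difference of log2(normalized count + 1). The brackets after it hold a 95% counting interval of the log2 ratio of the scaled reads, without the added 1. These intervals compare 2 libraries, cover counting error only and leave out any variation between cultures. The median change of all genes was 0.00 in both comparisons with sh-CTL. METTL3 itself stood at 3939 in sh-CTL, 1651 in sh-METTL3 and 3888 with PLK1i, a change of -1.25 (-1.34 to -1.17) in the library labelled as its knockdown. PLK1, whose product the drug inhibits, stood at 8058, 5226 and 8515. The labels call the cells epithelial: the keratins KRT8, KRT18 and KRT19 were listed at 3769.9 or more in every library, the mesenchymal gene VIM was at 185206 or more, and KRT7, EPCAM and CDH1 were not analysed here.

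**Figure D1:**
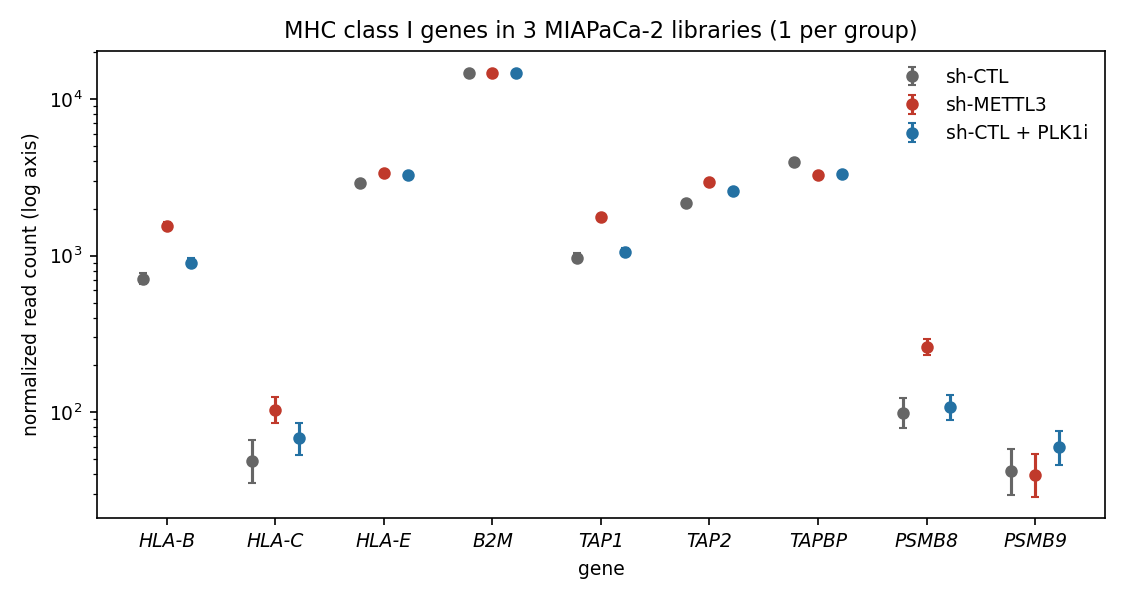
Normalized read counts of the 9 genes on a logarithmic axis, 1 point per library, with 95% exact Poisson counting intervals as bars. HLA-B, HLA-C, TAP1 and PSMB8 sat highest in sh-METTL3, B2M was level in the 3 libraries, and TAPBP was highest in sh-CTL.

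HLA-B and HLA-C were about 2-fold higher in sh-METTL3 than in sh-CTL. HLA-B stood at 710 in sh-CTL, 1553 in sh-METTL3 and 903 with PLK1i. The sh-METTL3 library was the highest and the PLK1i library lay between the other two, with changes of 1.13 (0.99 to 1.27) and 0.35 (0.20 to 0.50). HLA-C, with far fewer reads, stood at 49.0, 104 and 68.1 in the same order, from 42, 112 and 74 reads. Its change was 1.07 (0.56 to 1.63) in sh-METTL3. In sh-CTL + PLK1i it was 0.47, with an interval from -0.09 to 1.06 that included 0. The non-classical chain HLA-E stood at 2923, 3368 and 3270. The sh-METTL3 and PLK1i libraries were both above the control by a small margin, 0.20 (0.13 to 0.28) and 0.16 (0.09 to 0.24).

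HLA genes differ between people and resemble each other, so reads may have been shared or lost in the authors' counting. Of the 50-base windows along the main transcript, 2.56% in HLA-B, 6.76% in HLA-C and 4.80% in HLA-E also occurred in a transcript of another chromosome 6 gene.

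The light chain did not follow the heavy chains. B2M stood at 14608 in sh-CTL, 14677 in sh-METTL3 and 14628 with PLK1i. With 12527 reads or more in each library its changes were 0.01 (-0.03 to 0.04) and 0.00 (-0.03 to 0.04). The sign turned in sh-METTL3 when the trend with GC content and length was removed, and in the PLK1i library under some scalings as well.

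TAP1 and TAP2, which together form the peptide transporter, were higher in sh-METTL3. TAP1 stood at 970 in sh-CTL, 1769 in sh-METTL3 and 1049 with PLK1i. In sh-METTL3 its change was 0.87 (0.75 to 0.99). In the PLK1i library it was 0.11 (-0.02 to 0.24), an interval that included 0. TAP2 stood at 2176, 2953 and 2572, with changes of 0.44 (0.36 to 0.52) and 0.24 (0.16 to 0.33). Of the 50-base windows of the TAP2 transcript, 35.3% also occurred in another gene's transcript, mostly in ENSG00000250264, a readthrough gene on the same strand. That gene was listed with 42, 110 and 27 reads, few beside the 1866, 3186 and 2794 of TAP2.

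Tapasin went the other way. TAPBP stood at 3993 in sh-CTL, 3262 in sh-METTL3 and 3311 with PLK1i, with changes of -0.29 (-0.36 to -0.22) and -0.27 (-0.34 to -0.20). It was the one member with an interval below 0 in either comparison with the control.

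The immunoproteasome subunits PSMB8 and PSMB9 moved apart from each other in sh-METTL3. PSMB8 stood at 99.1 in sh-CTL, 262 in sh-METTL3 and 108 with PLK1i, from 85, 283 and 117 reads. Its change in sh-METTL3, 1.40 (1.05 to 1.77), was the largest among the 9 genes, and 1.93% of all genes had a higher one. In sh-CTL + PLK1i its change was 0.12 (-0.30 to 0.54). PSMB9 stood at 42.0, 39.9 and 59.8 from only 36, 43 and 65 reads. Its changes were -0.07 (-0.75 to 0.61) and 0.50 (-0.10 to 1.14), so at this depth no difference from sh-CTL was detectable in either library.

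**Figure D2:**
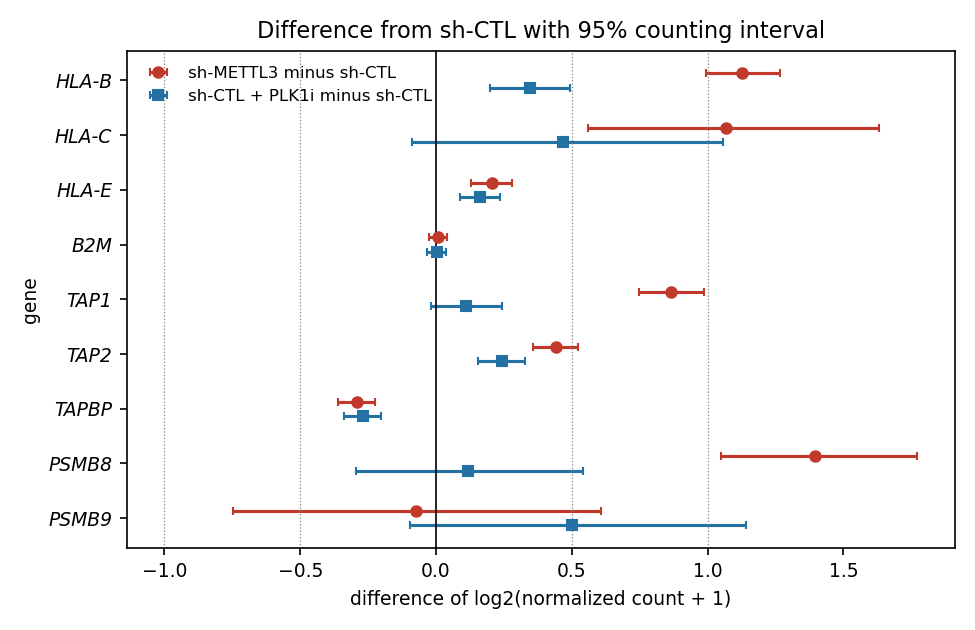
Difference of log2(normalized count + 1) from sh-CTL for each of the 9 genes, circles for sh-METTL3 and squares for sh-CTL + PLK1i, with 95% counting intervals as bars and dotted lines at 0.5 and 1 in either direction. HLA-B, HLA-C, TAP1 and PSMB8 lay beyond 0.5 in sh-METTL3, and PSMB9 alone reached 0.50 in sh-CTL + PLK1i, with an interval that included 0.

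Over the 9 genes, the median change in sh-METTL3 was 0.44, with a range from -0.29 to 1.40. HLA-B, HLA-C and PSMB8 were higher by at least 1, that is 3 of 9, against 3.42% of all genes. With TAP1, 4 of 9 were higher by at least 0.5, against 9.63% of all genes, and 0 of 9 were lower by 0.5, against 8.33%. The counting interval lay above 0 for 6 of 9, against 27.1% of all genes, and below 0 for 1 of 9, against 28.2%. Among the 6 members whose mean normalized count was at least 200, HLA-B and TAP1 were higher by at least 0.5, against 4.32% of the 10782 genes at such levels. The members were chosen with earlier results of these data known, so their counts here and in the other comparisons are no independent support.

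In sh-CTL + PLK1i the median change was 0.16, with a range from -0.27 to 0.50. None of the 9 was higher by 1, against 1.39% of all genes. PSMB9 was the 1 member higher by 0.5, against 5.18% of all genes, and 0 of 9 were lower by 0.5, against 5.77%. The count for PSMB9 was lost under most of the alternative settings tried. The interval lay above 0 for HLA-B, HLA-E and TAP2, 3 of 9 against 23.1% of all genes, and below 0 for TAPBP, 1 of 9 against 22.8%. These counts lay near the shares of all genes.

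As sh-CTL serves as the control of each comparison above, sh-METTL3 was also set directly against sh-CTL + PLK1i. The median difference was 0.20. PSMB8 was higher in sh-METTL3 by 1.28 (0.97 to 1.61), HLA-B by 0.78 (0.67 to 0.90), TAP1 by 0.75 (0.65 to 0.86) and HLA-C by 0.60 (0.17 to 1.05). Thus 4 of 9 were higher by at least 0.5, against 12.1% of all genes. PSMB9 was the 1 member lower by at least 0.5, at -0.57 (-1.18 to -0.01), against 10.5% of all genes. The intervals of HLA-E, B2M and TAPBP included 0 in this comparison.

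Per kilobase of annotated exon, which allows genes to be set against each other, the members ran over a wide range in sh-CTL. B2M led with 107 RPKM (reads scaled by exon length and by the library's total), followed by HLA-E with 22.9, TAPBP with 13.8, TAP2 with 4.81, TAP1 with 4.69, HLA-B with 3.52, PSMB8 with 0.652, HLA-C with 0.447 and PSMB9 with 0.288. TAP2 and TAP1 did not differ beyond their counting intervals, which ran from 4.60 to 5.03 and from 4.38 to 5.02, and those of PSMB8 and HLA-C, and of HLA-C and PSMB9, also overlapped. In sh-METTL3 TAP1 at 8.58 and HLA-B at 7.72 stood above TAP2 at 6.55. In sh-CTL + PLK1i the order was that of sh-CTL. The order depends on the transcript length used: with the mean length of coding transcripts TAPBP stood above HLA-E in sh-CTL, and PSMB9 above HLA-C in both sh-CTL libraries, and with the longest transcript TAP2 stood above HLA-B in sh-METTL3.

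Against the standard subunit that each replaces, the inducible subunits were less abundant. Per kilobase, PSMB8 stood at 0.558% of PSMB5 in sh-CTL, 1.5% in sh-METTL3 and 0.626% with PLK1i. PSMB9 stood at 0.298%, 0.253% and 0.424% of PSMB6. PSMB10, the remaining inducible catalytic subunit, stood at 8.62%, 6.71% and 7.06% of PSMB7. The changes of the standard subunits themselves in sh-METTL3 were -0.02 for PSMB5, 0.16 for PSMB6 and 0.34 (0.29 to 0.38) for PSMB7, and in sh-CTL + PLK1i they ran from -0.04 to 0.01. PSMB10 changed by -0.03 (-0.20 to 0.14) and -0.28 (-0.46 to -0.10). These ratios depend on the transcript length used. With the mean length of coding transcripts PSMB8 stood at 0.917%, 2.47% and 1.03% of PSMB5, and PSMB9 at 0.777%, 0.660% and 1.11% of PSMB6. The length scales every library alike, so it cannot change the order of the libraries within a pair. The PSMB8 ratio was highest in sh-METTL3, and those of PSMB9 and PSMB10 were lowest there. For PSMB9 this order rests on only 36, 43 and 65 reads, and no interval was computed for these ratios.

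**Figure D3:**
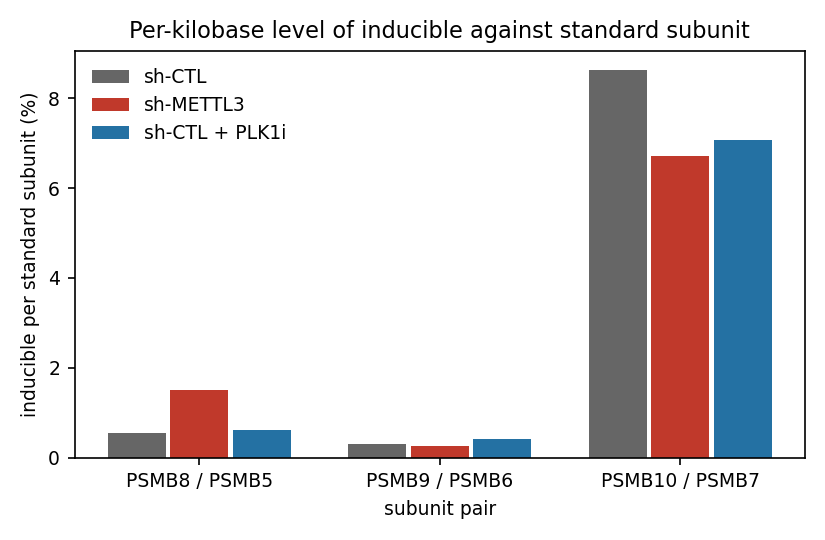
Level of each inducible proteasome subunit as a percentage of the standard subunit it replaces, per kilobase of annotated exon, 1 bar per library and no error bars. The PSMB8 to PSMB5 percentage was highest in sh-METTL3 at 1.5%, whereas PSMB10 to PSMB7 was highest in sh-CTL at 8.62%.

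The rest of the loading and trimming machinery moved little. None of its 14 genes was higher or lower by 0.5 in either comparison, with medians of 0.10 in sh-METTL3 and -0.08 in the PLK1i library. Of all genes, 9.63% were higher and 8.33% lower by 0.5 in sh-METTL3, and 5.18% and 5.77% in the PLK1i library. The chaperone calreticulin (CALR) changed by 0.34 (0.31 to 0.36) and -0.14 (-0.17 to -0.12). PDIA3, a thiol oxidoreductase of the loading complex, changed by 0.11 and 0.14. The trimming aminopeptidase ERAP1 stood at 486, 687 and 487, with changes of 0.50 (0.32 to 0.67), just under the limit of 0.5, and 0.00 (-0.19 to 0.19). Of the 5 other immunoproteasome and activator genes and the 14 standard core genes, 0 passed 0.5 in either comparison.

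Among 30 regulators of class I genes, 3 were higher and 2 lower by at least 0.5 in sh-METTL3, near the 9.63% and 8.33% of all genes, and none passed 0.5 in sh-CTL + PLK1i. NLRC5, the transactivator of class I genes, stood at 192, 399 and 190, a change of 1.05 (0.79 to 1.32) under the METTL3 hairpin and -0.02 (-0.32 to 0.28) in the PLK1i library. IRF2, a factor that binds interferon-response elements, changed by 0.87 (0.65 to 1.10) and -0.09 (-0.35 to 0.16). SOCS3 was at 0.57 (0.42 to 0.73) in sh-METTL3, whereas SOCS1, another inhibitor of cytokine signalling, was at -1.13 (-1.41 to -0.86). IRF1, a known activator of class I genes, changed by -0.61 (-0.83 to -0.39) and -0.17 (-0.37 to 0.03). The regulators were thus mixed in direction, with a median of 0.03 in sh-METTL3.

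The other class I and class I-like chains were mostly lower in sh-METTL3, with a median of -0.31 over the 9 in the table. MICB and ULBP1, ligands of the activating receptor of natural killer cells, changed by -1.14 (-1.39 to -0.90) and -1.30 (-1.65 to -0.98). They were the 2 of 9 lower by at least 0.5, against 8.33% of all genes. In sh-CTL + PLK1i they changed by -0.28 and 0.14. HFE, a class I-like regulator of iron uptake, changed by -0.41 (-0.51 to -0.32) and -0.51 (-0.61 to -0.41). None of these 9 was higher by 0.5 in either comparison.

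Most listed genes of the MHC class II pathway, which serves helper T cells, and of its control were lower in sh-METTL3. Of 14 looked up, 8 were in the table, among them the non-HLA genes CIITA, CD74 and IFI30. Of these 8, 4 were lower by at least 1, against 2.94% of all genes, and 5 by at least 0.5, against 8.33%. HLA-DRB1 stood at 66.5 in sh-CTL, 17.6 in sh-METTL3 and 89.3 with PLK1i, and HLA-DPA1 at 92.1, 23.2 and 85.6. Their changes in sh-METTL3 were -1.86 (-2.75 to -1.15) and -1.95 (-2.70 to -1.33). HLA-DRA and CD74, named after their values were seen, had 40 and 41 reads in sh-CTL, 1 each in sh-METTL3, and 52 and 42 in sh-CTL + PLK1i. Against sh-CTL their log2 intervals in sh-METTL3 ran from -10.99 to -3.09 and from -11.03 to -3.13. No gene in the table had a mean normalized count below 7.72. HLA-DRA and CD74 could thus be listed only through the sh-CTL libraries, so their place among the lower genes is no independent support. The class II transactivator CIITA, also named after its values were seen, had 45, 44 and 42 reads, with a change of -0.36 (-1.0 to 0.27) in sh-METTL3. HLA-B and HLA-C were above the control in the library where HLA-DRB1, HLA-DPA1, HLA-DRA and CD74 were below it. In a bulk sample, fewer cells that express a gene and less RNA per cell cannot be told apart.

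Other markers moved with sh-METTL3 as well. The collagen gene COL3A1 stood at 615, 42.6 and 378, with changes of -3.82 (-4.32 to -3.41) and -0.70 (-0.89 to -0.51), and CD68, a lysosomal gene common in macrophages, at 1755, 3243 and 2647, with changes of 0.89 (0.80 to 0.97) and 0.59 (0.50 to 0.68). It was the 1 of 3 measured immune genes higher by 0.5 in either comparison, against 9.63% and 5.18% of all genes. CD14, another of the 3 and named after its values were seen, had 37, 43 and 17 reads, with changes of -0.11 (-0.78 to 0.56) and -1.41 (-2.38 to -0.60), and PTPRC was not analysed here. Of 5 measured mesenchymal genes, 2 were lower by at least 0.5 in sh-METTL3, against 8.33% of all genes. The 3 epithelial keratins changed by 0.26 to 0.43 in sh-METTL3. The part of these differences in the class I values was not tested.

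Of 30 measured interferon-induced genes outside the pathway, 10 in sh-METTL3 were higher and 3 lower by at least 0.5, against 9.63% and 8.33% of all genes, with a median of 0.38. IFI6 changed by 1.0 (0.74 to 1.28), the ISG15-conjugating enzyme UBE2L6 by 0.99 (0.76 to 1.22) and the RNA-sensing synthetase OAS3 by 0.86 (0.65 to 1.07). BST2, which tethers viruses to the cell surface, stood at 345, 42.6 and 296, a change of -2.99 (-3.50 to -2.57), and the GTPase gene GBP2 changed by -0.93 (-1.23 to -0.64). In sh-CTL + PLK1i 3 were higher and 1 lower by at least 0.5, against 5.18% and 5.77% of all genes, with a median of 0.13, and IFIT3 was highest at 0.98 (0.86 to 1.11). Higher values of such genes in both libraries were already known when the lists were made, so these counts are no independent support.

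**Figure D4:**
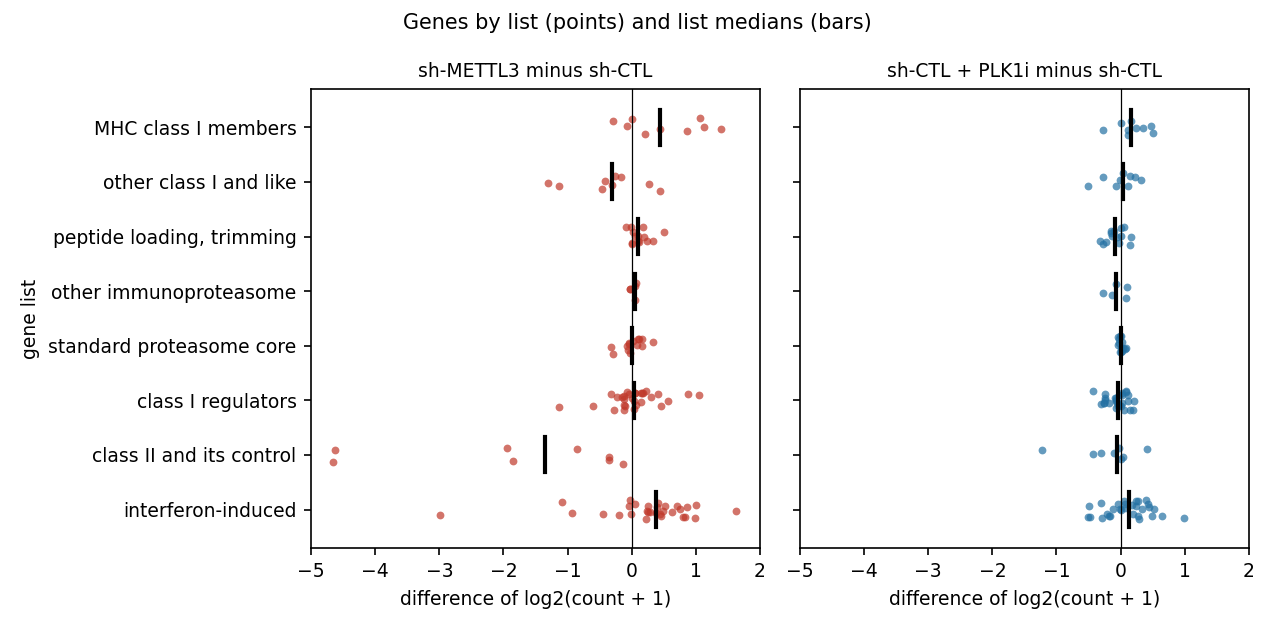
Difference of log2(normalized count + 1) from sh-CTL for every measured gene of 8 lists, 1 point per gene with a black bar at each list's median, sh-METTL3 on the left and sh-CTL + PLK1i on the right. In sh-METTL3 the class I members had a median of 0.44 and the list of class II and its control one of -1.35. The latter includes HLA-DRA and CD74, which could be listed only through the sh-CTL libraries, so it is no independent support. The standard proteasome core stayed within -0.33 to 0.34.

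Among genes that act with class I on the cell surface, 1 of 6 was lower by at least 0.5 in sh-METTL3, against 8.33% of all genes. In sh-CTL + PLK1i 1 of 6 was higher by at least 0.5, against 5.18%. A count of 1 does not set this list apart from all genes. CD58, a ligand for T-cell adhesion, changed by -0.82 (-0.97 to -0.68) in sh-METTL3. CD274, which encodes the checkpoint ligand PD-L1, stood at 217, 263 and 354, a change of 0.28 (0.01 to 0.55) under the METTL3 hairpin and 0.70 (0.45 to 0.97) in the PLK1i library.

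Most other genes of the MHC region stood near the control. From HLA-H to DAXX on chromosome 6, 92 genes outside the 9 had a mean normalized count of at least 50. Their median change in sh-METTL3 was -0.02, with 6 higher and 5 lower by at least 0.5, against 9.63% and 8.33% of all genes at any level. In sh-CTL + PLK1i their median change was -0.01, with 4 higher and 5 lower, against 5.18% and 5.77%. HLA-B and HLA-C lie near MICB, which was lower in sh-METTL3, and HLA-DRB1 and HLA-DPA1 lie on either side of the block of TAP2, PSMB8, TAP1 and PSMB9. Within that block the changes in sh-METTL3 were 0.44, 1.40, 0.87 and -0.07.

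**Figure D5:**
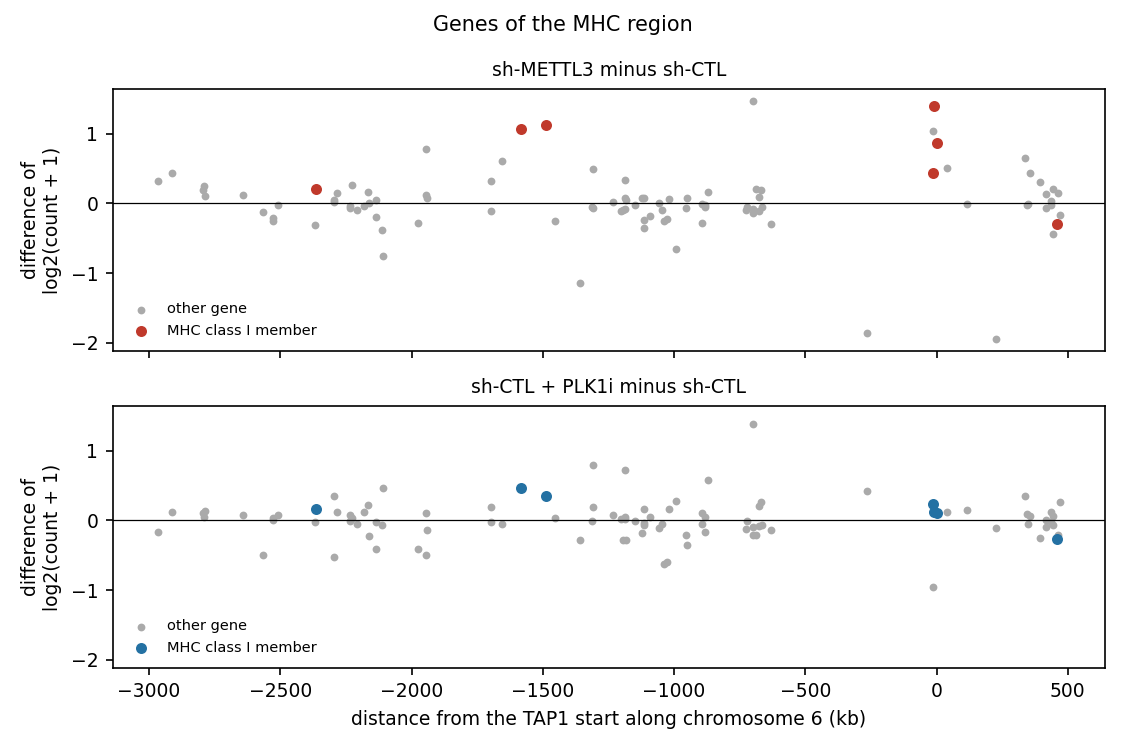
Difference of log2(normalized count + 1) from sh-CTL for genes of the MHC region by the distance of their start from that of TAP1 in kilobases, for sh-METTL3 above and sh-CTL + PLK1i below. Coloured points are the 7 class I members in the region whose mean normalized count was at least 50, which leaves out PSMB9, and grey points are the other 92 genes, with a median of -0.02 in sh-METTL3.

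Of the 8899 genes outside the lists whose mean normalized count was at least 500, the 5 nearest to the members' median pair of changes, 0.44 and 0.16, were SGTA, HNRNPA1P7, THOC1, KIFC3 and UBALD2. They lay within 0.0176 on the log2 scale. With 3 libraries such a likeness rests on 2 differences only.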

How the data were processed

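RNA sequencing was carried out on 1 library for each of 3 groups, taken from the sample titles. Per the labels, ISOGEN was used for RNA and a stranded mRNA kit for the libraries. The submitters' processing notes name FastQC 0.11.9, STAR 2.7.10, RSEM 1.3.3 and hg19, without giving their roles. The authors deposited log2 expression values for 14949 genes. The form of these values, inferred from their spacing, was log2(scaled reads + 4). Undoing it gave whole reads, within 0.1, for 100% of values above 0 and below 2000 reads. One read was worth 1.17, 0.927 and 0.921 in sh-CTL, sh-METTL3 and sh-CTL + PLK1i, and 0.0267, 0.0213 and 0.0210 CPM.

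Changes were differences of log2(normalized count + 1), which understate the change of weak genes. Genes needed a mean of at least 1, which removed none, as the deposited genes already had a mean of at least 7.72. For 2 libraries, the ratio of a gene's reads was given an exact 95% interval (Clopper-Pearson) with Python 3.11.15, numpy 2.4.6, pandas 2.3.3 and scipy 1.17.1. It covers counting error only, because it holds no term for variation between cultures. PCR copies were not marked by molecular identifiers, so it may be too narrow even for that. The scripts were tested on simulated data. Positions came from GENCODE 44 on GRCh37, with 14858 genes matched, and promoters from RefSeq.

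The members and lists were chosen with earlier results of these data known. Beside the 9 members and the fixed names NLRC5, IRF1, PSMB10, PSMB5, PSMB6, PSMB7, CALR, PDIA3 and ERAP1, genes were named where the mean was at least 50 and a change at least 0.5 in size, up to 6 per list. Some fixed names are not reported here. Alternatives covered the pseudocount, scaling, a trend with GC content and length, centring on chromosome 6, a filter at 200 and transcript length. Of the marker genes looked up, 3 of 6 epithelial, 5 of 8 mesenchymal, 3 of 9 immune, 0 of 4 endothelial and 0 of 5 acinar genes had values, and the others were not analysed here.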

Additional observations from a re-analysis of the deposited data

How the results depend on the processing

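No paired analysis was possible because each group held 1 library, and for the same reason no library could be left out. Of the recomputed counts and medians, 135 stayed within 1.5 times the count or within the counting interval of the median and 15 did not. No median turned its sign, and counts have none. Part of this tally could not move: some counts were 0 under every setting, and recomputed median-of-ratios factors equalled the scaling in use. A mean of at least 200 removed HLA-C, PSMB8 and PSMB9. In sh-METTL3 against sh-CTL it left 1 member higher by 1, 2 higher by 0.5 and a median of 0.32, and in sh-METTL3 against sh-CTL + PLK1i it left 0 higher by 1, 2 higher by 0.5, 0 lower by 0.5 and a median of 0.12. In that last comparison a pseudocount of 10 also gave 0 lower by 0.5, PSMB9 then being at -0.49. In sh-CTL + PLK1i against sh-CTL the 1 member higher by 0.5, PSMB9, became 0 with pseudocounts of 4 and 10, total reads, upper-quartile or TMM scaling, the GC and length trend removed, or the filter at 200. Its change there ran from 0.43 to 0.51. HLA-C was just below 1 in sh-METTL3, at 0.95, with a pseudocount of 10. B2M, near 0 throughout, turned its sign in 4 of 9 alternatives in sh-CTL + PLK1i and in 1 of 9 in sh-METTL3, and TAPBP in 1 of 10 in sh-METTL3 against sh-CTL + PLK1i. No scaling moved the median of all genes by more than 0.04. PSMB9, HLA-C and PSMB8, with the fewest reads, have the widest intervals.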
